A study of Mus musculus with 170 samples.

Results

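Gene expression was compared between kidney tubular cells and kidney endothelial cells sorted from young mice. The libraries were chosen by cell type and age alone, taking every young library of the 2 cell types. They were 3 libraries of tubular cells and 4 of endothelial cells, 7 of the 170 libraries of a study that profiled sorted cell types of many mouse tissues at 2 ages. Both groups came from mice on a C57/Bl6 background aged 2 months, given as young, with no treatment or engineered allele named in the labels. Cells were sorted by flow cytometry, and each library pooled cells of 5 animals, so p-values here measure the spread between pools. The antigens used for the sort are not given in the labels. The same 2 cell types from old mice, aged 22 to 24 months, gave 4 tubular and 3 endothelial libraries, which served as separate samples of the same contrast.

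The tubular epithelium of the kidney is a chain of segments, from the proximal tubule through the thick ascending limb and the distal convoluted and connecting tubules to the collecting duct, and each segment carries its own set of transporters. In the collecting duct, principal cells move water and sodium under hormonal control, and intercalated cells secrete acid or base with vacuolar proton pumps and chloride/bicarbonate exchangers. The endothelium that runs beside these segments is divided into fenestrated glomerular and peritubular capillaries, arterioles, vasa recta and veins, and depends on growth factors that include those made by epithelial cells.

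Total counts ran from 2064753 to 2766823 in tubular libraries and from 1109216 to 2552054 in endothelial libraries. Levels are counts scaled to library size with TMM factors (CPM) with the SD between libraries (n = 3 tubular and 4 endothelial), and per-library values are given in the order of the replicate numbers, 1 to 3 for tubular and 1 to 4 for endothelial cells. Fold changes are log2 of tubular over endothelial with their standard error, so a positive value is higher in tubular cells. Because counts come from the 3' ends of transcripts, a CPM does not depend on transcript length in the usual way, and levels are compared here within a gene and not between genes. In bulk libraries such as these, fewer cells of a type and less RNA per cell cannot be told apart.

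The marker genes of the 2 cell types went with the labels. Lrp2, which encodes megalin, the endocytic receptor of the proximal tubule, had 195, 158 and 114 CPM in the tubular libraries, against 53.8, 42, 36.2 and 54.7 CPM in the endothelial libraries. Every tubular library was above every endothelial library, but the endothelial level was far from 0 (log2 fold change 1.75 ± 0.21, edgeR adjusted p = 1.82e-06). Pecam1, the adhesion molecule CD31 of endothelial junctions, had 4.04, 5.8 and 2.82 CPM in the tubular libraries, against 672, 815, 655 and 803 CPM in the endothelial libraries. The groups did not overlap, and Pecam1 was at a few CPM in tubular cells (log2 fold change -7.47 ± 0.27, adjusted p = 3.45e-12). The sum of 27 pan-endothelial genes was 113, 117 and 92.7 CPM in the tubular libraries, against 15168, 16531, 16124 and 16413 CPM in the endothelial libraries.

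The tubular label covers several segments, and the libraries were compared segment by segment. The summed level of 14 intercalated cell genes was 5544, 7829 and 11999 CPM in the tubular libraries, against 131, 90.2, 233 and 96.5 CPM in the endothelial libraries. That of 12 principal cell genes was 3087, 4530.4 and 5604 CPM in the tubular libraries, against 672, 607, 859 and 418 CPM in the endothelial libraries. Endothelial libraries held 1.63% of the mean tubular level of the intercalated cell genes and 14.5% of that of the principal cell genes. For 12 genes of the distal convoluted and connecting tubule this share was 18.7%, for 12 genes of the thick ascending limb 19%, and for 30 genes of proximal tubule reabsorption 37.3%. The proximal sum was 2139, 1767 and 1263 CPM in the tubular libraries, against 729, 455, 573 and 816 CPM in the endothelial libraries. Among these lists the contrast between the 2 sorts was thus widest for intercalated cells and narrowest for proximal reabsorption. The endothelial share was 23.9% for the brush border list and 92.8% for the organic ion transport list. Most of the endothelial sum of the latter list was Abcg2, which was lower in tubular cells. Scaled by total count alone, Abcg2 averaged 194 of the list's 313 CPM in endothelial cells and 52.3 of its 349 CPM in tubular cells. The 92.8% is therefore not a share of tubular transcripts alone. Tubular transcripts were measurable in each of the 4 endothelial libraries. Their part in the fold changes of segment genes given here was not tested.

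The tubular libraries also differed among themselves by segment. Replicate 3 had the highest sum of intercalated and of principal cell genes and the lowest of proximal, thick ascending limb and distal convoluted tubule genes. Replicate 1 had the reverse on each of these 5 lists. The widest gap was that of the intercalated cell genes, 11999 CPM in replicate 3 and 5544 CPM in replicate 1. Endothelial libraries were below all tubular libraries on each of the 5 sums.

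**Figure D1:**
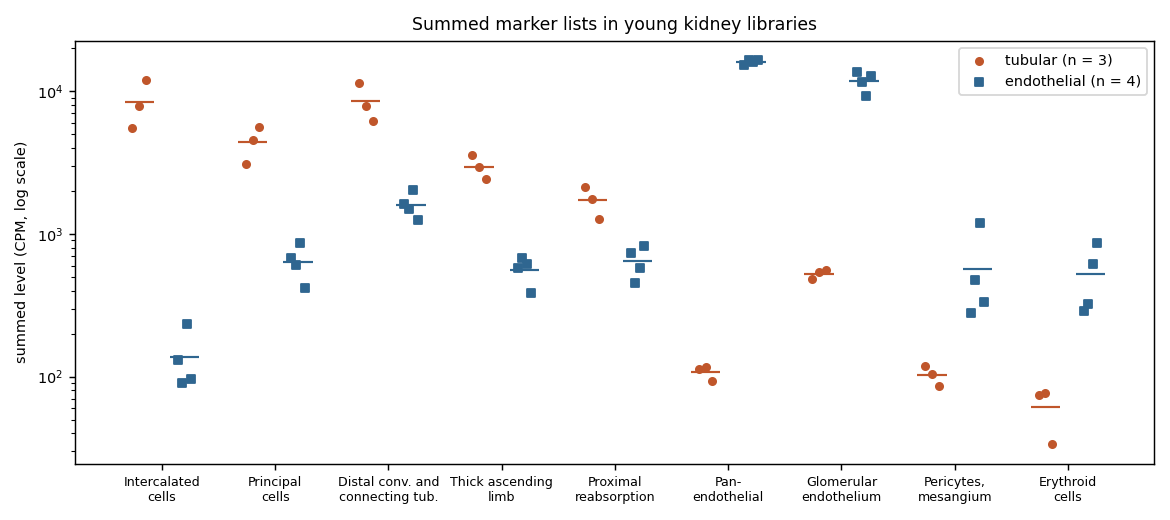
Summed level (CPM, log axis) of the genes of each marker list in each young library, with tubular libraries left of endothelial libraries within a list and horizontal bars at the group means. Among the tubular segment lists the intercalated cell genes show the widest gap, with 8458 CPM as the tubular mean and 138 CPM as the endothelial mean. The pan-endothelial genes show a wider gap in the opposite direction, with 108 CPM as the tubular mean and 16059 CPM as the endothelial mean.

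Of 13380 genes tested with edgeR's quasi-likelihood test, 3836 (28.7%) were higher and 3936 (29.4%) were lower in tubular cells at an adjusted p under 0.05. Genes past this threshold, 58.1% of those tested, are the background for every count of list members given below. A stricter test, against the hypothesis that the change was within 2-fold, called 1866 genes higher (13.9%) and 2086 lower (15.6%). Libraries of the 2 groups did not overlap for 7801 genes (58.3%). The largest differences were on the endothelial side. Among called genes, 103 were over 32-fold higher in tubular cells and 426 were over 32-fold lower. The median log2 fold change of all genes tested was -0.0014. The first principal component held 86.4% of the variance and separated the cell types.

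The largest excess in tubular cells was looked at among called genes whose libraries did not overlap and whose higher mean reached 100 CPM, leaving out unnamed gene models, pseudogenes and antisense genes. Of the 12 such genes with the highest log2 fold change, 5 are on the list of intercalated cell genes, Aqp6, Slc4a1, Atp6v1g3, Slc4a9 and Insrr. Lypd2, which is on chromosome 15, 74732247 to 74734329 (GRCm38), had 244, 152 and 94.8 CPM in the tubular libraries, against 0, 0, 0 and 2.23 CPM in the endothelial libraries. No endothelial library reached the lowest tubular value, and 3 of the 4 had no read. Aqp6, an intracellular aquaporin of intercalated cells, had 525, 695 and 1230.1 CPM in the tubular libraries, against 5.66, 1.58, 13 and 3.35 CPM in the endothelial libraries, with tubular replicate 3 the highest and no overlap (log2 fold change 6.93 ± 0.41, adjusted p = 5.56e-10). Slc4a1, the chloride/bicarbonate exchanger AE1 of acid-secreting intercalated cells and of red cells, had 386, 686 and 967 CPM in the tubular libraries, against 9.44, 2.37, 6.51 and 6.69 CPM in the endothelial libraries (log2 fold change 6.76 ± 0.35, adjusted p = 1.13e-10). Rgr, a gene of the opsin receptor family, was at 122 ± 3.53 CPM in tubular cells and 0.541 ± 0.635 CPM in endothelial cells and had a small spread in tubular cells (log2 fold change 7.51 ± 0.35). Fst, which encodes the activin-binding protein follistatin, was at 222 ± 61.6 CPM in tubular cells and 2.3 ± 2.23 CPM in endothelial cells (log2 fold change 6.74 ± 0.37). Slc4a11, a bicarbonate transporter family member, was at 245 ± 73.7 CPM in tubular cells and 2.92 ± 2.03 CPM in endothelial cells (log2 fold change 6.44 ± 0.33). Without one endothelial library the log2 fold change was 8.62 for Rgr and 7.87 for Aqp6 (replicate 3 left out) and 7.53 for Fst (replicate 2 left out). The remaining genes of this set were Atp6v1g3, Oxgr1 (a receptor for alpha-ketoglutarate), Slc4a9 (the exchanger AE4), Insrr (a receptor kinase related to the insulin receptor), Edn3 (endothelin 3) and Avpr1a (the V1a vasopressin receptor), with log2 fold changes from 5.93 to 6.34.

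The genes with the largest deficit in tubular cells were held at 0 or a few reads by the tubular libraries, and several are known endothelial genes. Fam167b had 0 reads in all 3 tubular libraries, against 90.6, 138, 137 and 120.5 CPM in the endothelial libraries. The floor of 3 reads over the tubular group makes it at least 306-fold lower in tubular cells. Rasip1, a Ras-interacting protein needed for vascular lumens, had 0 reads in tubular cells and 104 ± 15.3 CPM in endothelial cells, at least 246-fold lower. Gpihbp1, which carries lipoprotein lipase to the capillary lumen, had 1 read in tubular cells, and the ratio of endothelial over tubular cells was 2099, with a 95% counting interval from 376 to 82930.4. Sox18, a transcription factor of endothelial development, also had 1 tubular read and a ratio of 1882, with a 95% counting interval from 337 to 74382. Ctla2a and Myct1 had 2 tubular reads each and Ccrl2, a chemerin-binding receptor, had 1, with ratios of endothelial over tubular cells from 874 to 1309. These intervals cover counting error only.

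Cdh5, the VE-cadherin of endothelial junctions, had 0.367, 1.45 and 0.352 CPM in the tubular libraries, against 722, 791, 781 and 996 CPM in the endothelial libraries. Its endothelial libraries were close to each other and its tubular libraries were near 0 (log2 fold change -10.16 ± 0.35, adjusted p = 3.45e-12). Kdr, the main signalling receptor for VEGF, had 2.57, 3.38 and 0.352 CPM in the tubular libraries, against 1687, 1765, 1598 and 1867 CPM in the endothelial libraries and likewise did not overlap (log2 fold change -9.72 ± 0.37, adjusted p = 5.33e-12). S1pr1, the sphingosine-1-phosphate receptor, was at 0.679 ± 0.30 CPM in tubular cells and 459 ± 50.1 CPM in endothelial cells (log2 fold change -9.32 ± 0.30). Gimap6, a GTPase of the immunity-associated family, was at 0.929 ± 0.559 CPM in tubular cells and 532 ± 71.3 CPM in endothelial cells (log2 fold change -9.08 ± 0.32), and Cyyr1 was at 1.45 ± 1.26 CPM in tubular cells and 748 ± 108 CPM in endothelial cells (log2 fold change -9.08 ± 0.34). Without tubular replicate 2 the log2 fold change was -10.91 for Cdh5 and -9.88 for Cyyr1. In all, 19 genes had no read in the tubular libraries and a mean of at least 20 CPM in endothelial cells, and 1 gene, the unnamed model Gm21943, showed the opposite.

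**Figure D2:**
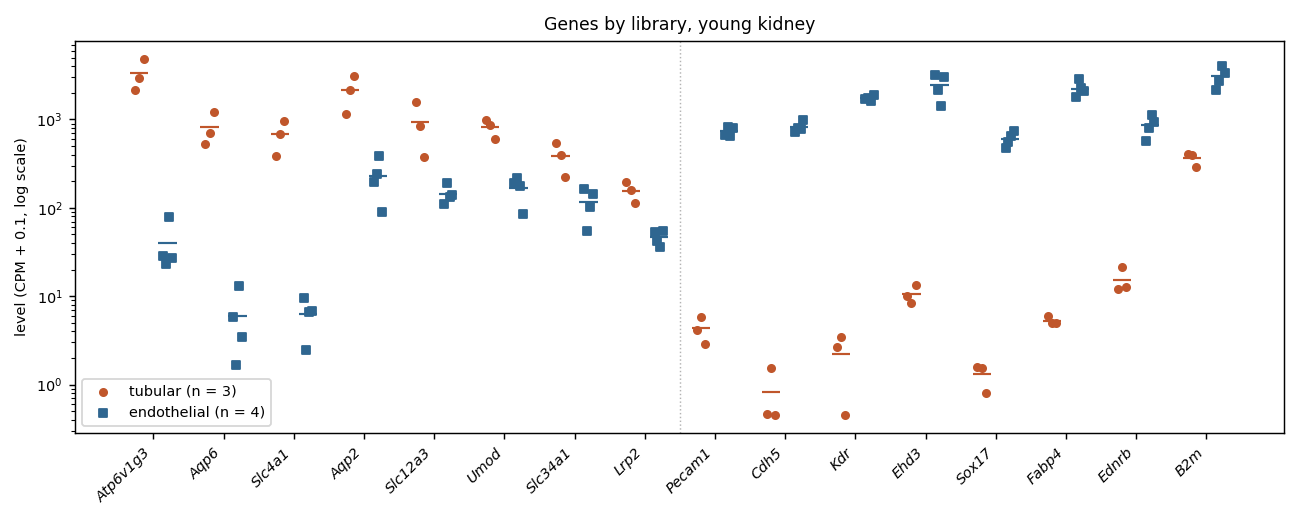
Level (CPM plus 0.1, log axis) of 16 genes in each young library, tubular libraries left of endothelial libraries, with horizontal bars at the group means. The 8 genes on the left are higher in every tubular library and the 8 on the right higher in every endothelial library, where Cdh5 averaged 0.723 CPM in tubular cells and 823 CPM in endothelial cells.

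Intercalated cells acidify or alkalinise the urine. Of the 14 genes of their list, 14 were tested and 14 were higher in tubular cells, all beyond 2-fold, with a median log2 fold change of 5.81 against -0.0014 over all genes tested. Aqp6 and Slc4a1, given above, had the highest log2 fold changes of the list. Atp6v1g3, a subunit of the vacuolar proton pump specific to few tissues, had 2180.1, 2947 and 4886 CPM in the tubular libraries, against 28.3, 23, 79.7 and 26.8 CPM in the endothelial libraries. Tubular replicate 3 was the highest, endothelial replicate 3 was the highest of its group, and the groups did not overlap (log2 fold change 6.34 ± 0.41, adjusted p = 1.52e-09). The other pump subunits Atp6v0d2, Atp6v1b1, Atp6v1c2 and Atp6v0a4 had log2 fold changes from 4.72 to 5.88. Slc26a4, pendrin, the chloride/bicarbonate exchanger of base-secreting cells, was at 468 ± 146 CPM in tubular cells and 8.58 ± 5.27 CPM in endothelial cells (log2 fold change 5.74 ± 0.34, adjusted p = 5.17e-10). Foxi1, the transcription factor that specifies intercalated cells, was at 190.4 ± 102 CPM in tubular cells and 2.46 ± 2.69 CPM in endothelial cells (log2 fold change 5.92 ± 0.46, adjusted p = 1.17e-08). The ammonia channels Rhcg and Rhbg had log2 fold changes of 4.98 and 5.15, and Hmx2 had 5.51. Without endothelial replicate 3 the fold changes were higher, 6.99 for Atp6v1g3, 6.79 for Atp6v1c2, 5.96 for Rhbg and 6.97 for Foxi1. Markers of both acid-secreting (Slc4a1) and base-secreting (Slc26a4, Slc4a9) cells were present in the tubular sort.

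Principal cells, which reabsorb water and sodium, came next. Of their 12 genes, 10 were tested and 10 were higher in tubular cells (median log2 fold change 3.11). Aqp2, the vasopressin-regulated water channel, had 1142, 2149 and 3141 CPM in the tubular libraries, against 195, 239.9, 389.9 and 90.4 CPM in the endothelial libraries. Both groups varied about 2-fold or more within themselves without overlapping (log2 fold change 3.22 ± 0.39, adjusted p = 1.98e-06). Aqp3, the basolateral water channel, was at 394 ± 118 CPM in tubular cells and 47.1 ± 29.9 CPM in endothelial cells (log2 fold change 3.01 ± 0.33). The 3 subunits of the epithelial sodium channel were higher in tubular cells, with log2 fold changes of 3.78 for Scnn1a, 3.67 for Scnn1b and 3.21 for Scnn1g. Hsd11b2, the enzyme that protects the mineralocorticoid receptor from glucocorticoids, was at 257 ± 31.2 CPM in tubular cells and 25.3 ± 11.8 CPM in endothelial cells (log2 fold change 3.33 ± 0.26). Aqp4 and Gata3 passed the test with lower fold changes, 1.30 and 1.47, and their libraries overlapped. Without endothelial replicate 3 the value for Aqp3 was 3.60, and without tubular replicate 3 that for Aqp4 was 0.76. Avpr2, the V2 vasopressin receptor, had too few reads to be tested.

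All 12 genes of the distal convoluted and connecting tubule were tested and higher in tubular cells (median log2 fold change 2.64). Slc12a3, the thiazide-sensitive sodium chloride cotransporter, had 1561, 848 and 378 CPM in the tubular libraries, against 109.5, 190.0, 134 and 141 CPM in the endothelial libraries, with tubular replicate 1 the highest and no overlap (log2 fold change 2.69 ± 0.34, adjusted p = 3.16e-06). Klk1, tissue kallikrein, was at 3719 ± 689 CPM in tubular cells and 464 ± 219 CPM in endothelial cells (log2 fold change 3.00 ± 0.29). The calcium-handling genes Calb1 (calbindin), S100g (calbindin-D9k) and Trpv5 (the apical calcium channel) had log2 fold changes of 2.99, 3.24 and 3.26. Without tubular replicate 1 the log2 fold change of Slc12a3 was 2.11. Wnk1, a kinase that regulates the cotransporter, had the lowest value on the list, 0.86.

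In the thick ascending limb list 10 of 11 tested genes were higher in tubular cells (median log2 fold change 2.31). Umod, uromodulin, had 999, 873 and 604 CPM in the tubular libraries, against 193, 217, 176 and 84.2 CPM in the endothelial libraries, and the groups did not overlap (log2 fold change 2.31 ± 0.26, adjusted p = 1.04e-06). Slc12a1, the furosemide-sensitive cotransporter, was at 602 ± 198 CPM in tubular cells and 133 ± 23.7 CPM in endothelial cells (log2 fold change 2.18 ± 0.22). Bsnd, barttin, which intercalated cells and other distal segments also express, had a higher log2 fold change, 5.00. Cldn10 did not pass the test, with 101 CPM in tubular cells and 76.5 CPM in endothelial cells and overlapping libraries, though it did without tubular replicate 3 (adjusted p = 0.0115).

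Proximal genes were also mostly higher in tubular cells but by less. Of 30 genes of proximal reabsorption, 24 were tested, 21 were higher and 0 lower (median log2 fold change 1.75). Slc34a1, the main sodium phosphate cotransporter, had 542, 394 and 222 CPM in the tubular libraries, against 164, 54.6, 103 and 142 CPM in the endothelial libraries, with tubular replicate 3 the lowest of its group and no overlap (log2 fold change 1.74 ± 0.31, adjusted p = 1.30e-04). Slc6a18, an amino acid transporter, had the highest fold change of the list, 4.56, at 68.9 ± 20.1 CPM in tubular cells and 2.79 ± 0.949 CPM in endothelial cells. Slc9a3, the sodium/proton exchanger NHE3 of proximal tubule and thick ascending limb, was at 25 ± 12.9 CPM in tubular cells and 1.55 ± 0.956 CPM in endothelial cells (log2 fold change 4.12 ± 0.50). Cubn, cubilin, the partner of megalin, was at 10.3 ± 3.68 CPM in tubular cells and 5.11 ± 1.69 CPM in endothelial cells and passed the test narrowly with overlapping libraries (log2 fold change 0.96 ± 0.39, adjusted p = 0.0441). That call was lost with DESeq2 (adjusted p = 0.0772) and without any one of endothelial replicates 1, 2 and 3 or tubular replicates 1 and 2, where the adjusted p reached 0.208. Slc13a1, the sulphate cotransporter, was at 59.5 ± 33.9 CPM in tubular cells and 30.0 ± 16.5 CPM in endothelial cells and did not pass (adjusted p = 0.0513), though it did without tubular replicate 3 (0.00168) or endothelial replicate 4 (0.0111). Slc15a2 and Slc6a20b did not pass either, with log2 fold changes of -0.05 and 0.19.

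Of 17 organic ion transporters 11 were tested, 8 were higher in tubular cells and 1 was lower. Slc47a1, which exports organic cations into the urine, was at 39.4 ± 12.8 CPM in tubular cells and 7.21 ± 4.7 CPM in endothelial cells (log2 fold change 2.51 ± 0.37), and Slc22a6 and Slc22a8, which take up organic anions, had log2 fold changes of 2.42 and 1.65. Slc22a7 had no read in endothelial cells and 7.74 ± 2.4 CPM in tubular cells, at least 17.6-fold higher in tubular cells. The member that went the other way was Abcg2, an efflux pump found on many capillaries, at 52.3 ± 22.6 CPM in tubular cells and 200.2 ± 82.3 CPM in endothelial cells (log2 fold change -1.96 ± 0.32, adjusted p = 6.47e-05). Among 16 brush border genes 11 were tested, 9 were higher and 1, Alpl (alkaline phosphatase), was lower (log2 fold change -1.27 ± 0.21). Mme, neprilysin, had 255, 257 and 501 CPM in the tubular libraries, against 4.72, 9.5, 13 and 7.25 CPM in the endothelial libraries and no overlap (log2 fold change 5.20 ± 0.31, adjusted p = 4.74e-10). Ggt1, gamma-glutamyl transferase, was at 178 ± 71.2 CPM in tubular cells and 19.2 ± 5.56 CPM in endothelial cells (log2 fold change 3.26 ± 0.27). Enpep, an angiotensin-cleaving aminopeptidase, did not pass the test, with 43.4 CPM in tubular cells and 34.8 CPM in endothelial cells.

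**Figure D3:**
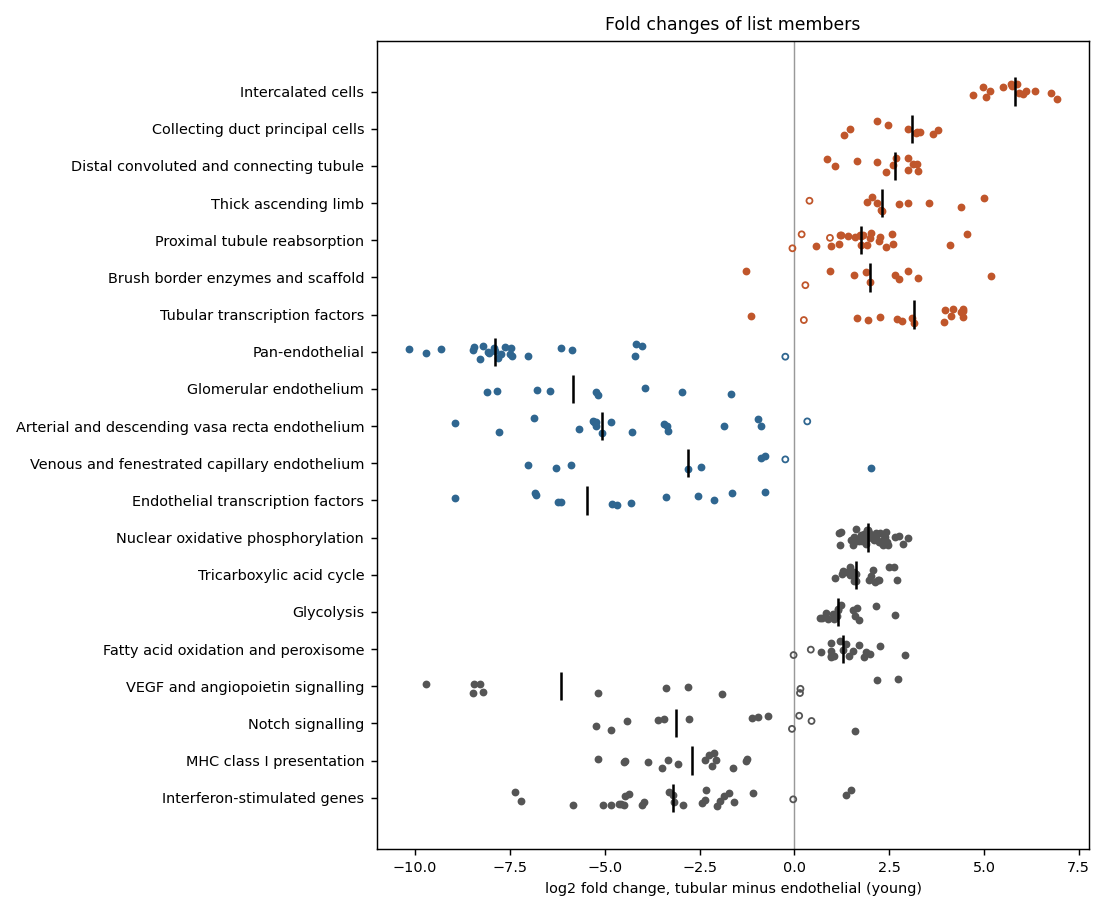
Log2 fold change (tubular minus endothelial) of each tested gene of 20 lists, tubular lists above endothelial and pathway lists, with a vertical tick at the list median and filled points for genes past the test. Genes with 3 or fewer reads in a group are not drawn. Intercalated cell genes lie farthest to the right with a median of 5.81, and pan-endothelial genes farthest to the left with a median of -7.89.

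Transcription factors of the nephron followed the same division. Of 19 on the list, 17 were tested, 15 were higher in tubular cells and 1, Irx3, was lower with overlapping libraries (log2 fold change -1.14 ± 0.26); the median log2 fold change was 3.15. Pax8, a regulator of kidney development that adult tubules keep, had 393, 437 and 341 CPM in the tubular libraries, against 23.6, 19.8, 26.8 and 15.6 CPM in the endothelial libraries and no overlap (log2 fold change 4.17 ± 0.20, adjusted p = 5.88e-11). Hnf4a, which in the kidney marks the proximal tubule, was at 26.7 ± 4.47 CPM in tubular cells and 3.72 ± 1.96 CPM in endothelial cells (log2 fold change 2.71 ± 0.34). Tfcp2l1 and Ehf, factors of the distal nephron and collecting duct, had log2 fold changes of 4.13 and 4.41. Of 20 endothelial factors 17 were tested and 17 were lower in tubular cells (median -5.46). Sox17, a factor of arterial endothelium, was at 1.21 ± 0.435 CPM in tubular cells and 609 ± 112 CPM in endothelial cells without overlap (log2 fold change -8.94 ± 0.32, adjusted p = 3.45e-12). The ETS factors Erg, Fli1, Ets1, Ets2 and Elk3 had log2 fold changes from -6.81 to -2.11, with Erg at 0.807 ± 0.399 CPM in tubular cells and 95.2 ± 12.2 CPM in endothelial cells. The flow-responsive factors Klf2 and Klf4 were at -6.84 and -4.69.

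Promoters were searched for letters that ETS factors are known to bind. The motif and genes for this search were picked after fold changes were known. RefSeq promoters on GRCm38.p6, running from 250 bases before to 50 after a gene's start, were matched by symbol for 9551 of the genes tested, some with several starts. The ETS motif, spelled CAGGAAG and read on both strands, was in 12% of the promoters of genes higher and 15.1% of those of genes lower beyond 2-fold, and in 12.5% of all. A match is a description of these letters and no evidence of binding.

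The promoters of 3 genes that were lower in tubular cells show the ETS letters in capitals, on the opposite strand in Rasip1 and Ehd3. Robo4, a guidance receptor of endothelium, had 3 reads in tubular cells and 159 ± 20.7 CPM in endothelial cells, a ratio of endothelial over tubular cells of 381, with a 95% counting interval from 130.1 to 1851. Sequences run 5′ to 3′ and lie at chr7:45627287-45627586, chr9:37401722-37402021 and chr17:73804591-73804890, each on the plus strand.
Rasip1: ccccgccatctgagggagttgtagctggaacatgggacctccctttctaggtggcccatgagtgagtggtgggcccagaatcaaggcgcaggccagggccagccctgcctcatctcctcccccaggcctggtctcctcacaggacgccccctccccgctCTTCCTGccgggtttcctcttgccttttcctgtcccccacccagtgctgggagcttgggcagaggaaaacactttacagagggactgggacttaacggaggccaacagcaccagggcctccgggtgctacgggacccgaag
Robo4: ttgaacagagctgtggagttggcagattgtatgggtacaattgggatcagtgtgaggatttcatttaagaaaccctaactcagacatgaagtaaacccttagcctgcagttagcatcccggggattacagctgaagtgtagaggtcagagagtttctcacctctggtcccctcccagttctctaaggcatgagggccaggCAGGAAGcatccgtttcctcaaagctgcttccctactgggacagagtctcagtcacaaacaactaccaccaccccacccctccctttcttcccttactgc
Ehd3: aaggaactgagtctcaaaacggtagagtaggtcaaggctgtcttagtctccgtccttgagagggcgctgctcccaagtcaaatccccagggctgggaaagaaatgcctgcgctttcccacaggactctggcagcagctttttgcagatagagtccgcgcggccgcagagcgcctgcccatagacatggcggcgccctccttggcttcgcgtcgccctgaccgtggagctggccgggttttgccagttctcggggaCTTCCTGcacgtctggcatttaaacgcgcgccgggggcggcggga

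On the endothelial side, the 27 pan-endothelial genes were all tested and 26 were lower in tubular cells beyond 2-fold, with a median log2 fold change of -7.89. Flt1, the VEGF receptor that also acts as a decoy, had 8.07, 8.21 and 3.17 CPM in the tubular libraries, against 1543, 1958, 2218 and 1850.0 CPM in the endothelial libraries and no overlap (log2 fold change -8.20 ± 0.33, adjusted p = 7.55e-12). Ptprb, the phosphatase of endothelial junctions and of the Tie2 receptor, was at 8.09 ± 3.7 CPM in tubular cells and 2468 ± 314 CPM in endothelial cells (log2 fold change -8.28 ± 0.33). Emcn, the sialomucin endomucin, was at 7.19 ± 2.37 CPM in tubular cells and 1511 ± 125 CPM in endothelial cells (log2 fold change -7.73 ± 0.27). Vwf, von Willebrand factor, was the member that did not pass the test, with 23.9, 18.8 and 26.4 CPM in the tubular libraries, against 20.8, 32.5, 33.7 and 21.2 CPM in the endothelial libraries and overlapping libraries (adjusted p = 0.429). Cldn5, the claudin of tight capillaries, was at 1.31 ± 0.882 CPM in tubular cells and 24.6 ± 5.73 CPM in endothelial cells (log2 fold change -4.20 ± 0.43).

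The endothelial sort held markers of several vascular beds. All 10 glomerular endothelial genes were lower in tubular cells (median log2 fold change -5.84). Ehd3, an endocytic protein of glomerular endothelium, had 9.91, 8.21 and 13.4 CPM in the tubular libraries, against 3219, 2167, 1423 and 3004 CPM in the endothelial libraries and no overlap (log2 fold change -7.84 ± 0.37, adjusted p = 4.42e-11). Plat, tissue plasminogen activator, was at 22.5 ± 7.61 CPM in tubular cells and 2478 ± 559 CPM in endothelial cells (log2 fold change -6.79 ± 0.33), and Tbx3 was at 29.3 ± 13.7 CPM in tubular cells and 1056 ± 291 CPM in endothelial cells (log2 fold change -5.17 ± 0.35). Gata5 had no read in tubular cells and was at least 95.2-fold lower. Of 19 genes of arterial and descending vasa recta endothelium 18 were lower. Efnb2, the arterial ephrin ligand, was at 17.7 ± 5.63 CPM in tubular cells and 697 ± 127 CPM in endothelial cells (log2 fold change -5.31 ± 0.26), and Slc14a1, the urea transporter of the descending vasa recta and red cells, was at 0.675 ± 0.586 CPM in tubular cells and 158 ± 16.7 CPM in endothelial cells (log2 fold change -7.79 ± 0.35). Without tubular replicate 1 the value for Slc14a1 was -7.18. Jag1 and Slc6a6 had smaller differences, -0.96 and -0.89, and Scin did not pass except without tubular replicate 3 (adjusted p = 0.0423). Of 11 tested genes of venous and fenestrated capillary endothelium 9 were lower. Plvap, the diaphragm protein of fenestrated capillaries, was at 5.49 ± 0.163 CPM in tubular cells and 717 ± 232 CPM in endothelial cells (log2 fold change -7.01 ± 0.31). Igfbp7 went the other way, at 254 ± 16.1 CPM in tubular cells and 62.6 ± 11.2 CPM in endothelial cells (log2 fold change 2.03 ± 0.17, adjusted p = 3.85e-08). Of the lymphatic list 3 genes could be tested, of which 1 was higher in tubular cells (log2 fold change 1.68), 1 was lower and 1 was not called. Flt4, the VEGF-C receptor that fenestrated capillaries also carry, had 2 tubular reads and 129.8 CPM in endothelial cells, while Lyve1 and Prox1 were at most 9.96 CPM in either group.

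Ligands and receptors of the VEGF and angiopoietin system fell on different sides. Vegfa, the main ligand of Kdr and Flt1, had 96.1, 99.5 and 117 CPM in the tubular libraries, against 100.1, 95.8, 83.3 and 95.9 CPM in the endothelial libraries. Its libraries overlapped and it did not pass the test (adjusted p = 0.404). Vegfb, a ligand of Flt1, was higher in tubular cells, at 59.8 ± 4.12 CPM in tubular cells and 12.5 ± 5.58 CPM in endothelial cells (log2 fold change 2.18 ± 0.26, adjusted p = 2.12e-06). Angpt2, a ligand of the Tie2 receptor, had 415, 273 and 249 CPM in the tubular libraries, against 48.2, 53.8, 54.5 and 32.9 CPM in the endothelial libraries and no overlap (log2 fold change 2.72 ± 0.22, adjusted p = 1.69e-08). The receptors and co-receptors Kdr, Flt1, Tek, Tie1, Nrp1 and Nrp2 were lower in tubular cells, with log2 fold changes from -9.72 to -2.80. That of Tie1 was -9.33 without tubular replicate 2. Esm1, a secreted proteoglycan of VEGF-stimulated endothelium, was at 0.401 ± 0.0716 CPM in tubular cells and 184 ± 59.9 CPM in endothelial cells. In this list of 18 genes 16 were tested, 2 were higher and 12 lower.

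In the Notch list 12 of 16 tested genes were lower in tubular cells, among them the ligands Dll4 and Jag1 and the receptors Notch1 and Notch4, with log2 fold changes from -4.84 to -0.96. Notch3 was higher in tubular cells (29.4 ± 4.25 CPM in tubular cells and 9.27 ± 2.52 CPM in endothelial cells, log2 fold change 1.61 ± 0.27), and Notch2 did not pass the test. In the TGF-beta and BMP list 15 of 21 tested genes were lower and 3 higher. Eng, the co-receptor endoglin, was at 1.56 ± 1.17 CPM in tubular cells and 360.2 ± 27.4 CPM in endothelial cells (log2 fold change -7.89 ± 0.30), and the receptors Acvrl1, Bmpr2 and Tgfbr2 had log2 fold changes from -3.18 to -2.41. Without tubular replicate 2 the value for Eng was -8.53. Bmp7, a renal epithelial ligand, and its receptor Bmpr1a were higher in tubular cells, at 2.58 and 2.29. Gdf15 was higher by 1.09.

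Genes of vascular tone showed the same kind of split. Of 16 tested 13 were lower and 3 higher in tubular cells. Ednrb, the endothelin B receptor, had 12.1, 21.3 and 12.7 CPM in the tubular libraries, against 576, 805, 1112 and 935 CPM in the endothelial libraries (log2 fold change -5.82 ± 0.30, adjusted p = 1.03e-10), and no library overlapped. Edn1, endothelin 1, was at 16 ± 5.95 CPM in tubular cells and 161 ± 72.5 CPM in endothelial cells (log2 fold change -3.34 ± 0.35), while Edn3, which is named above and is not on this list, was at 118 ± 34.9 CPM in tubular cells and 1.99 ± 2.09 CPM in endothelial cells (log2 fold change 5.96 ± 0.40). The adrenomedullin receptor Calcrl and its partners Ramp2 and Ramp3 were lower in tubular cells, from -8.88 to -5.86, and the peptide Adm was higher, at 37.3 ± 7.03 CPM in tubular cells and 7.13 ± 3.35 CPM in endothelial cells (log2 fold change 2.40 ± 0.30). Agt, angiotensinogen, and Ptges, a prostaglandin E synthase, were also higher in tubular cells, by 1.22 and 3.99. Nos3, the endothelial nitric oxide synthase, was at 0.557 ± 0.50 CPM in tubular cells and 10.1 ± 4.26 CPM in endothelial cells (log2 fold change -4.03 ± 0.65). Without tubular replicate 1 the value was -6.64 for Ramp2, -7.81 for Ramp3 and -3.43 for Nos3. Without tubular replicate 3 it was -9.88 for Calcrl and -6.15 for Ramp3, and without endothelial replicate 3 it was 4.64 for Ptges. Of mineral hormone genes 6 were tested, 5 higher and 0 lower in tubular cells. Kl, the FGF23 co-receptor klotho, was at 174 ± 84.1 CPM in tubular cells and 29.3 ± 9.79 CPM in endothelial cells (log2 fold change 2.59 ± 0.30), Vdr, the vitamin D receptor, at 116 ± 10.1 CPM in tubular cells and 21.4 ± 4.7 CPM in endothelial cells (log2 fold change 2.45 ± 0.19), and Pth1r, the parathyroid hormone receptor, at 183 ± 54.2 CPM in tubular cells and 51 ± 9.52 CPM in endothelial cells (log2 fold change 1.86 ± 0.21).

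Energy metabolism differed in one direction. Of 46 nuclear-encoded genes of oxidative phosphorylation 45 were tested and 45 were higher in tubular cells, 42 of them beyond 2-fold, with a median log2 fold change of 1.95 and a range from 1.17 to 2.99. The summed level was 35987, 33754 and 32900.5 CPM in the tubular libraries, against 7194, 7204, 9583 and 6899.6 CPM in the endothelial libraries. Ndufb8, a complex I subunit, had the highest value, at 1684 ± 240.0 CPM in tubular cells and 212 ± 32.9 CPM in endothelial cells (log2 fold change 2.99 ± 0.19, adjusted p = 1.01e-09), and Cycs, cytochrome c, and Cox7b, a complex IV subunit, had 2.86 and 2.76. All 20 genes of the tricarboxylic acid cycle were higher (median 1.62), led by Idh3a at 307 ± 44.5 CPM in tubular cells and 46.5 ± 7.04 CPM in endothelial cells (log2 fold change 2.72 ± 0.18). All 16 tested glycolysis genes were higher as well (median 1.15), but 4 beyond 2-fold. Among them were Slc2a1, the glucose transporter GLUT1, and Tpi1, triosephosphate isomerase, with log2 fold changes of 2.16 and 2.65. Gapdh and Pgk1 were low in both groups (19.4 CPM in tubular cells and 11.8 CPM in endothelial cells for Gapdh). The call of Gapdh was lost with DESeq2 (adjusted p = 0.074) and without any one of endothelial replicates 1, 2 and 4 or tubular replicates 1 and 3, where it reached 0.123. Both genes have many processed copies in the genome, so reads may have been left uncounted or split.

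Of fatty acid oxidation genes 17 of 19 tested were higher and 0 lower (median 1.29). Ppargc1a, the coactivator PGC-1alpha of mitochondrial genes, had 277, 303 and 282 CPM in the tubular libraries, against 34.9, 42, 41.9 and 32.9 CPM in the endothelial libraries and no overlap (log2 fold change 2.92 ± 0.17, adjusted p = 3.24e-10). Acadm, medium-chain acyl-CoA dehydrogenase, was at 291 ± 33.9 CPM in tubular cells and 72.4 ± 10.1 CPM in endothelial cells (log2 fold change 2.00 ± 0.17). Genes of fatty acid uptake were divided, 7 higher and 6 lower of 14 tested. Fabp4, the fatty acid binding protein of capillary endothelium and adipocytes, had 5.87, 4.83 and 4.93 CPM in the tubular libraries, against 1778, 2833, 2246 and 2102 CPM in the endothelial libraries (log2 fold change -8.72 ± 0.30, adjusted p = 3.45e-12), and Cd36, a fatty acid transporter, was at 8.44 ± 5.18 CPM in tubular cells and 489.6 ± 167 CPM in endothelial cells (log2 fold change -5.88 ± 0.39). Fabp3 and Acsl1, the acyl-CoA synthetase, were higher in tubular cells, by 2.37 and 2.68. In gluconeogenesis, which the proximal tubule carries out, 8 of 9 tested genes were higher. Pck1, its rate-limiting enzyme, was at 123 ± 39.9 CPM in tubular cells and 30.0 ± 2.33 CPM in endothelial cells (log2 fold change 2.03 ± 0.22), and Pck2, the mitochondrial form, did not pass the test except without tubular replicate 3 (adjusted p = 0.00235) or with all 14 kidney libraries in the fit (0.0252).

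In the amino acid list 11 of 18 tested genes were higher and 1 lower in tubular cells. Glul, glutamine synthetase, was lower in tubular cells, at 83 ± 7.25 CPM in tubular cells and 285 ± 56.1 CPM in endothelial cells (log2 fold change -1.78 ± 0.19, adjusted p = 3.96e-07). In the detoxification list 9 were higher and 5 lower of 19 tested. Gpx3, the plasma glutathione peroxidase made by the kidney, was at 5331 ± 1045 CPM in tubular cells and 1258 ± 497 CPM in endothelial cells (log2 fold change 2.08 ± 0.30), and Cyp4b1, a cytochrome P450, at 27.5 ± 29.9 CPM in tubular cells and 405 ± 116 CPM in endothelial cells (log2 fold change -3.86 ± 0.50). Without tubular replicate 1 the log2 fold change of Cyp4b1 was -5.30.

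Mitochondrially encoded genes are listed at 0 in every library of the deposited table, so their level was not measured. Among the genes with the most reads in tubular cells were 2 nuclear entries that resemble them, looked at after their values were seen. Gm28437 had 13722, 3268 and 9349 CPM in the tubular libraries, against 979, 229.6, 35.8 and 71.4 CPM in the endothelial libraries. Its reference transcript matches mt-Co3, a subunit of complex IV, without a mismatch over 783 bases. Gm43841, a processed pseudogene on chromosome 5, 7276324 to 7276909, had 5209.8, 5006 and 2694 CPM in the tubular libraries, against 8.5, 9.5, 2.03 and 3.35 CPM in the endothelial libraries (log2 fold change 9.70 ± 0.41). It matches mt-Cytb at 83.7% over 551 of 586 bases. Reads of Gm28437 and of mt-Co3 cannot be told apart where the sequences are identical, so the values of Gm28437 are uncertain. Gm43841 differs from mt-Cytb at many bases. The source of its reads was not tested, so its values are uncertain too.

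Gene families of cell junctions and transport divided member by member. Among 22 tested tight junction genes 12 were higher and 9 lower in tubular cells. Cldn8, a claudin of the distal nephron, had 586, 651 and 734 CPM in the tubular libraries, against 18.9, 20.6, 36.6 and 11.2 CPM in the endothelial libraries (log2 fold change 4.86 ± 0.28, adjusted p = 3.33e-10), with no overlap. Cldn4 and Cldn7, also of distal segments, and Cldn2, the cation and water channel of the proximal tubule, had log2 fold changes of 4.49, 4.22 and 4.18. Without endothelial replicate 3 that of Cldn7 was 5.01. Cldn15 was lower in tubular cells, at 8.4 ± 5.18 CPM in tubular cells and 194 ± 18.8 CPM in endothelial cells (log2 fold change -4.56 ± 0.32), as were Cldn5, Jam2, Jam3 and Esam. Of the cadherins, Cdh16, the kidney-specific cadherin, had 928, 984 and 1108 CPM in the tubular libraries, against 43.4, 46.7, 62.2 and 23.4 CPM in the endothelial libraries (log2 fold change 4.51 ± 0.25, adjusted p = 2.64e-10), Cdh1, E-cadherin, was at 237 ± 26.7 CPM in tubular cells and 14.1 ± 3.58 CPM in endothelial cells (log2 fold change 4.09 ± 0.21), and Cdh5 was the one of 7 tested that was lower. Of 7 aquaporins tested, 6 were higher in tubular cells and Aqp11 was lower (log2 fold change -1.45 ± 0.39, and -0.96 without tubular replicate 3). Aqp1, the water channel of the proximal tubule and descending vasa recta, had the smallest of the 6 positive fold changes, 1.28, at 1115 ± 205 CPM in tubular cells and 457 ± 95.6 CPM in endothelial cells.

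Sodium pump subunits were divided between the cell types. Atp1b1, the widespread beta subunit, had 1685, 1476 and 1757 CPM in the tubular libraries, against 106, 108, 131 and 103 CPM in the endothelial libraries, with every tubular library above every endothelial library (log2 fold change 3.87 ± 0.18, adjusted p = 4.06e-11). Fxyd2, the gamma subunit of kidney pumps, was at 6122 ± 674 CPM in tubular cells and 384 ± 128 CPM in endothelial cells (log2 fold change 3.99 ± 0.26). The alternative beta subunit Atp1b2 was lower in tubular cells, at 4.12 ± 2.82 CPM in tubular cells and 64.8 ± 9.29 CPM in endothelial cells (log2 fold change -3.93 ± 0.32). Without tubular replicate 1 the value for Atp1b2 was -4.66. Fxyd5, dysadherin, was at 1.65 ± 0.827 CPM in tubular cells and 259 ± 47.3 CPM in endothelial cells (log2 fold change -7.21 ± 0.30). No groups overlapped for these 4 genes. Of 10 members tested, 4 were higher and 6 lower.

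Collagen IV chains divided in the same manner. The chains Col4a3, Col4a4 and Col4a5, which form the network mutated in Alport syndrome, were higher in tubular cells, with log2 fold changes of 1.64, 3.12 and 2.35. Col4a4 had 902, 776 and 699 CPM in the tubular libraries, against 118, 79.2, 92.7 and 76.4 CPM in the endothelial libraries and no overlap (adjusted p = 6.52e-10). The ubiquitous chains Col4a1 and Col4a2 were lower, at -1.97 and -1.77. Lama4, the laminin chain of vessels, was at 1.0 ± 0.495 CPM in tubular cells and 83.1 ± 12.5 CPM in endothelial cells (log2 fold change -6.22 ± 0.32), and Sparc, a collagen-binding matrix protein, at 72 ± 36.6 CPM in tubular cells and 1650.2 ± 176 CPM in endothelial cells (log2 fold change -4.52 ± 0.33). Of 21 basement membrane genes tested 7 were higher and 11 lower.

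**Figure D4:**
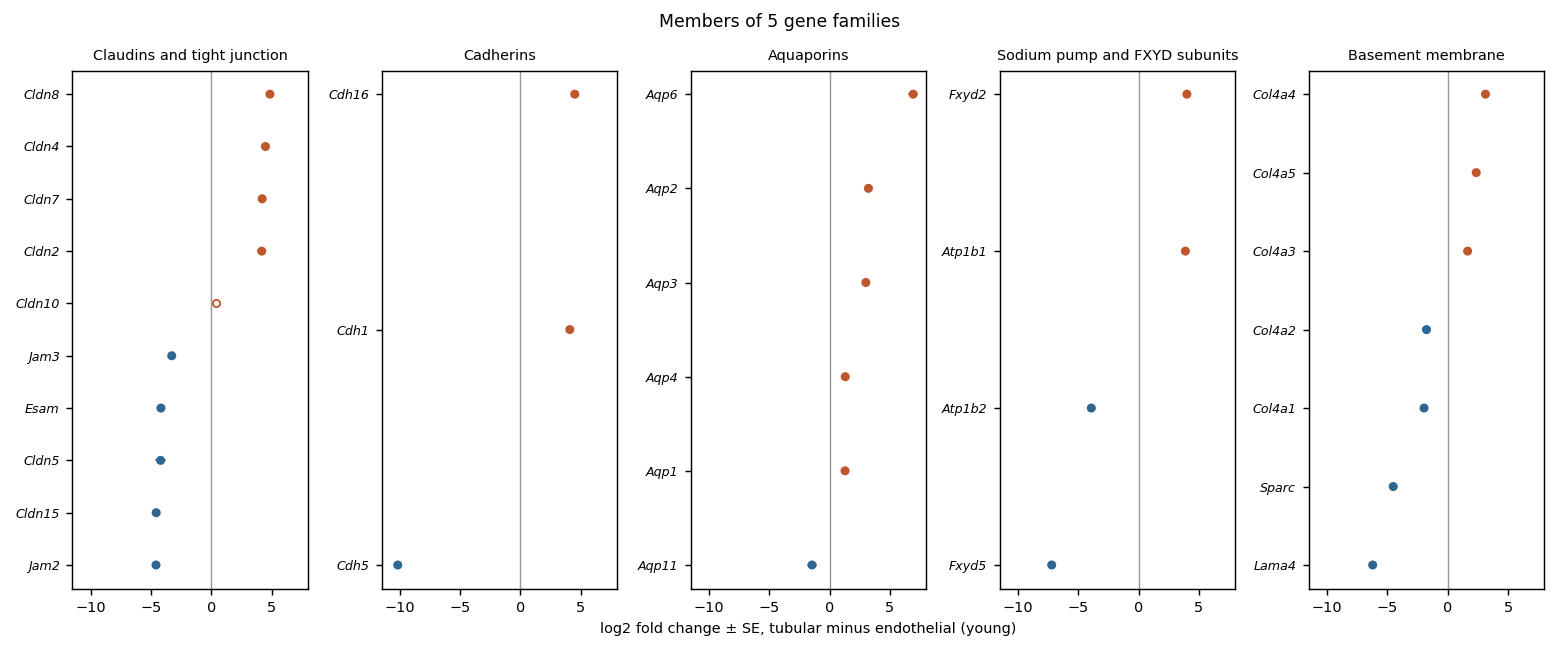
Log2 fold change (tubular minus endothelial) with its standard error for the members of 5 families named in the text, sorted within a family, where points right of 0 are higher in tubular cells. Filled points passed the test, and in each family some members lie on either side of 0, as for Fxyd2 at 3.99 and Fxyd5 at -7.21.

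Genes of MHC class I presentation were lower in tubular cells, as were most of the interferon-stimulated genes tested. All 16 genes of MHC class I presentation were tested and lower (median log2 fold change -2.71). B2m, the light chain of class I molecules, had 410.3, 396 and 293 CPM in the tubular libraries, against 2138, 2732, 4034 and 3393 CPM in the endothelial libraries and no overlap (log2 fold change -3.07 ± 0.25, adjusted p = 2.44e-08). Psmb9, an immunoproteasome subunit, was at 2.42 ± 1.2 CPM in tubular cells and 86.6 ± 15.6 CPM in endothelial cells (log2 fold change -5.17 ± 0.31), and the class I regulator Nlrc5 at 1.0 ± 0.495 CPM in tubular cells and 24.7 ± 4.56 CPM in endothelial cells (log2 fold change -4.47 ± 0.41). The classical genes H2-K1 and H2-D1 and the H2-Q genes are near-identical to each other in part, so reads may have been split between them. Of 29 tested interferon-stimulated genes 26 were lower and 2 higher (median -3.20). Rsad2, viperin, had 11.4, 10.6 and 6.34 CPM in the tubular libraries, against 1384, 1419, 1401 and 1349 CPM in the endothelial libraries (log2 fold change -7.20 ± 0.26, adjusted p = 3.45e-12), and Ifitm3, an inhibitor of virus entry, was at 30.7 ± 4.4 CPM in tubular cells and 1741 ± 296 CPM in endothelial cells (log2 fold change -5.83 ± 0.24). Ifit3 went the other way, at 265 ± 42 CPM in tubular cells and 93.7 ± 16.8 CPM in endothelial cells (adjusted p = 1.85e-06), as did Ifitm1 (log2 fold change 1.36 ± 0.44). The call of Ifitm1 was lost without tubular replicate 3 (adjusted p = 0.0641) and without endothelial replicate 4 (0.0526). Immediate-early and heat-shock genes, which can respond to tissue dissociation, were divided, 6 higher and 8 lower of 21 tested, with Fos at 2.21 and Jun at -1.39.

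Genes known from tubular injury were mostly higher in tubular cells, 5 of 8 tested, with 1 lower. Spp1, osteopontin, which healthy distal tubules also make, had 8156, 7906 and 5452 CPM in the tubular libraries, against 220.0, 181, 310.2 and 223 CPM in the endothelial libraries and no overlap (log2 fold change 4.94 ± 0.25, adjusted p = 1.02e-10). The keratins Krt8 and Krt18 had log2 fold changes of 4.44 and 5.05. Havcr1, the injury marker KIM-1, had too few reads to be tested, at 5.57 CPM in tubular cells and 0.236 CPM in endothelial cells, and Sox9 was lower in tubular cells (log2 fold change -1.52 ± 0.34).

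Markers of other cells moved with the 2 sorts in places. Of pericyte, mesangial and smooth muscle genes 7 of 9 tested were lower in tubular cells and Notch3 was higher. Their sum was 119, 104 and 86 CPM in the tubular libraries, against 280.4, 477, 1195 and 332 CPM in the endothelial libraries, with endothelial replicate 3 apart from the rest. Acta2, smooth muscle actin, was at 13.1 ± 2.57 CPM in tubular cells and 141 ± 177 CPM in endothelial cells (log2 fold change -3.49 ± 0.70), and its log2 fold change was -2.03 without endothelial replicate 3. Pdgfrb, the pericyte receptor, was at 1.33 ± 0.574 CPM in tubular cells and 28.9 ± 8.85 CPM in endothelial cells (log2 fold change -4.38 ± 0.42). Haemoglobin genes were lower in tubular cells in 4 of 4 cases tested, with a summed erythroid level of 74.9, 76.8 and 33.5 CPM in the tubular libraries, against 288, 323, 616 and 861 CPM in the endothelial libraries, and the alpha and beta pairs are near-identical copies. In the podocyte list 5 of 8 tested were lower, led by Podxl, podocalyxin, which endothelium also expresses (7.09 ± 1.45 CPM in tubular cells and 856 ± 131 CPM in endothelial cells, log2 fold change -6.92 ± 0.25), while Nphs1, a slit diaphragm gene, was at 4.47 CPM in tubular cells and 11.7 CPM in endothelial cells, with the call of Nphs1 lost without tubular replicate 3 (adjusted p = 0.0668). On the tubular side Dcn, decorin, was at 57.3 ± 4.87 CPM in tubular cells and 1.57 ± 1.32 CPM in endothelial cells (log2 fold change 5.31 ± 0.39) and Csf1r, the macrophage growth factor receptor, at 92.2 ± 13.6 CPM in tubular cells and 11.4 ± 4.79 CPM in endothelial cells (log2 fold change 2.92 ± 0.25), while the macrophage complement genes C1qa, C1qb and C1qc did not pass the test, except C1qb without endothelial replicate 1 (adjusted p = 0.0438). No gene of the T and NK cell, B cell or neutrophil lists had enough reads to be tested. The part of these cells in the fold changes was not tested.

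Old libraries gave the same contrast in separate pools. Among 13176 genes tested at both ages, log2 fold changes correlated across genes with Pearson's r = 0.941, a description in which genes are not independent replicates. In old cells 3932 of 14479 genes were higher and 3941 lower in tubular cells (27.2% each, 54.4% together). Of 7613 genes called in young cells and tested in old cells, 6103 (80.2%) were called in the same direction in old cells and 21 in the opposite one. For the 3819 called beyond 2-fold the share was 95.9%. In old cells the log2 fold change was 7.29 ± 0.27 for Atp6v1g3, 2.14 ± 0.23 for Umod, 1.12 ± 0.18 for Lrp2, -8.92 ± 0.28 for Kdr and -6.81 ± 0.22 for Pecam1. Of the 14 intercalated cell genes 14 were higher in old tubular cells (median 7.11), while 11 of 23 tested genes of proximal reabsorption passed the test in old cells (median 0.94).

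A test of the difference between ages, old minus young, called 58 genes with a higher tubular over endothelial ratio in old cells (0.39% of 14882) and 71 with a lower one (0.477%). Together they were 0.867% of the genes tested, and the counts moved with single libraries. Without one library at a time the higher count ran from 27 to 133, and it was moved over 1.5 times by old endothelial replicates 1 (36), 2 (27) and 3 (31) and by young endothelial replicate 1 (133). The lower count ran from 35 to 115, moved by old endothelial replicates 2 (39) and 3 (38), young endothelial replicates 3 (46) and 4 (45) and young tubular replicates 1 (35) and 3 (115). On the scale of all 14 kidney libraries, Slc4a11 averaged 68.7 CPM in old tubular cells and 239 CPM in young tubular cells, and its log2 fold change was 3.44 in old and 6.44 in young cells (difference -2.97 ± 0.59, adjusted p = 0.0132). Without old endothelial replicate 2 the adjusted p was 0.111. Bst1, an ectoenzyme that makes cyclic ADP-ribose, had a difference of -2.39 ± 0.36 (adjusted p = 0.00212). Cldn15 differed by -2.81 ± 0.48, and Enpp6 and Stk32a by -2.66 and -2.53. In the other direction, Clec1a, a C-type lectin receptor, averaged 17.8 CPM in old and 1.79 CPM in young tubular cells, and 303 CPM in old and 291 CPM in young endothelial cells (difference 3.21 ± 0.38, adjusted p = 2.10e-04). Itga8, an integrin chain of mesangial cells, averaged 38.6 ± 11 CPM in old and 164 ± 88.4 CPM in young endothelial cells. In tubular cells Itga8 averaged 21.2 ± 10.5 CPM in old and 8.24 ± 5.07 CPM in young libraries. The difference in its log2 fold change was 3.41 ± 0.61. Pdgfrb had a difference of 2.98, Cd53 of 3.24 and Cyth4 of 3.34. The call of Cyth4 was lost without any one library other than young endothelial replicate 1 and old tubular replicates 3 and 4, with an adjusted p of up to 0.11 over all alternatives. That of Stk32a was lost without any one library other than young and old endothelial replicate 1, old tubular replicate 2 and young tubular replicate 3, with up to 0.141. That of Cd53 was lost without old endothelial replicate 1 or 3 or young tubular replicate 1, with up to 0.0884. The summed level of the 10 pericyte, mesangial and smooth muscle genes ran from 67.2 to 129 CPM in old and 83.8 to 117 CPM in young tubular libraries, and from 124 to 201 CPM in old and 279 to 1179.9 CPM in young endothelial libraries, with 1 of the genes called. That of 10 macrophage genes ran from 182 to 306 CPM in old and 156 to 189 CPM in young tubular libraries, and from 118 to 199.6 CPM in old and 45.1 to 69.9 CPM in young endothelial libraries. Median log2 fold changes of endothelial lists moved both ways with age. They were -7.89 in young and -7.25 in old cells for pan-endothelial genes, and -5.84 and -6.05 for glomerular endothelial genes. No gene of either list was called for a difference with age. The part of these other cells, and of endothelial transcripts in tubular libraries, in the differences with age was not tested.

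**Figure D5:**
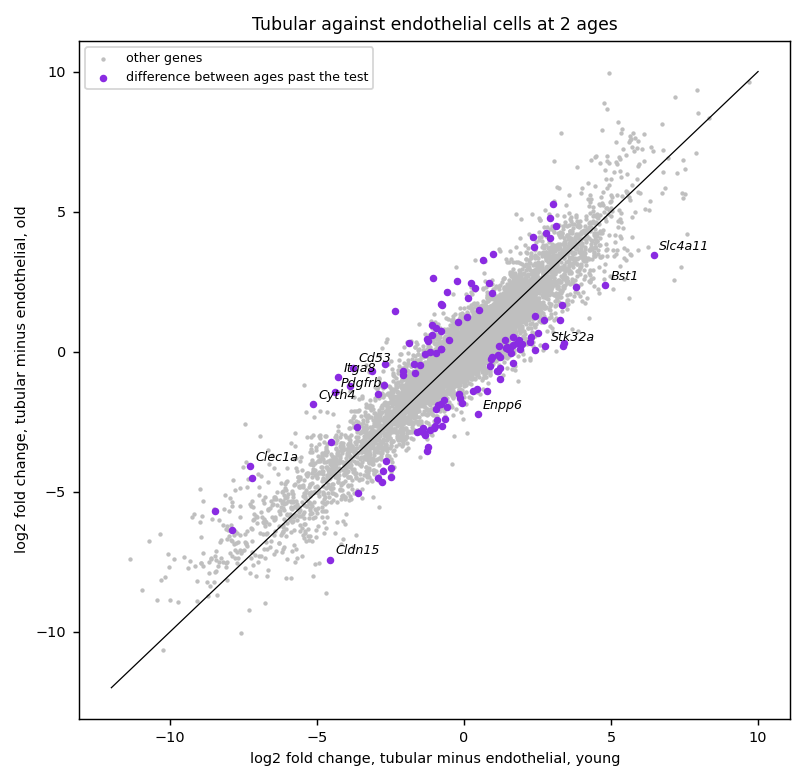
Log2 fold change (tubular minus endothelial) of 13176 genes in old cells (vertical axis) against young cells (horizontal axis), with the genes whose difference between ages passed the test in colour. Most genes lie along the diagonal, with r = 0.941 across genes, and the 10 named genes lie off it.

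Levels were also set among the 23 young cell types of the study. For these ranks CPM was scaled by each library's own total count alone, without TMM factors. No scaling between cell types was applied. For Umod, Aqp2, Atp6v1g3 and Foxi1 tubular cells ranked first and kidney endothelial cells second, with the next cell type at 0.472 CPM for Umod and 13.2 CPM for Aqp2. Slc4a1 was also measured at 464 CPM in CD8 memory T cells, whose libraries held erythroid transcripts at a sum of 29909 CPM. Spp1 was higher in liver progenitors, at 24114 CPM. Kidney endothelial cells had the highest mean of Kdr, Ehd3, Plat and Igfbp5, of which Ehd3 was at 2368 CPM there and 266 CPM in lymph node endothelial cells. Fabp4 reached 43001 CPM in adipocytes and 2169.6 CPM in kidney endothelial cells. The summed level of oxidative phosphorylation genes was highest in tubular cells, 34368 CPM, followed by adipocytes with 19415 CPM, and kidney endothelial cells were 18th with 7462 CPM. Ranks are given without a test.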

How the data were processed

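RNA of sorted, pooled cells was sequenced as 3' poly(A) libraries with an 8 bp index and a 10 bp molecular identifier, per the labels' protocols. The strand setting and any removal of copies by identifier are not given in the sources used here. STAR, featureCounts 2.0.1, sabre 80faf94, GRCm38.p6 and mm10 appear in the submitters' processing notes. The deposited table holds raw whole-number counts for 55484 genes, with no scaling by the authors.

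Groups came from the labels' cell type and age. Genes passing edgeR's filterByExpr (minimum count 10, minimum total 15) were scaled by TMM and tested with glmQLFit and glmQLFTest (edgeR 4.0.16, R 4.3.3) over the 7 young libraries, and beyond 2-fold with glmTreat. Adjusted p is Benjamini-Hochberg over all genes tested, with a threshold of 0.05. Old libraries were tested alike, and the difference between ages as an interaction over 14 libraries. On simulated counts with 200 changed genes, the young test recovered 64% of 2-fold and 98% of 4-fold changes with 4.32% false calls, and the interaction 12.5% and 79.3%. The simulation gave every gene the same dispersion and left all other genes equal between groups. In the real young contrast 58.1% of genes were called and spreads differed by gene, so these rates do not carry over to it. No replicates were identical. Gene positions are from GENCODE M21, and copies were aligned with blastn 2.17.0.

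The comparison, the 47 gene lists and the genes named were chosen with earlier results of these data known. Named genes were the 12 highest and 12 lowest called genes that reached 100 CPM without overlap, leaving out unnamed models, pseudogenes, antisense genes, immune receptor segments and genes that follow sex. Of each list they were taken from the first 6 genes, the 6 called genes of lowest adjusted p in each direction and those against the list's direction. For the interaction they were the 5 highest and 5 lowest that reached 20 CPM, with the same left out. Another 23 genes were named after their values were seen: Edn1, Elk3, Ets1, Ets2, Foxi1, Gapdh, Gata3, Gm21943, Gm28437, Gm43841, Hmx2, Klf4, Notch2, Nrp1, Pgk1, Rhbg, Robo4, Scin, Slc13a1, Slc15a2, Slc6a20b, Slc6a6 and Wnk1. Some genes are not reported here. List medians were the same with genes at 0 in a group set at the bound of 3 reads. Alternatives were RLE factors, total counts only, no filter on low counts, DESeq2 1.42.0, a block for replicate number, all 14 libraries in a single fit and leaving out each library. A fit of replicates 1 to 3 only was added after the data were seen.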

Additional observations from a re-analysis of the deposited data

Results flagged for a closer look

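In endothelial cells 1 young library stood apart from the other 3 for 12 genes and 3 summed lists, of 266 groups looked at. Chance sets about 1 group in 20 apart, and these 15 flags are near that share. Endothelial replicate 3 had Acta2 at 405 CPM (32.1 to 77.6 CPM in the others), Agt at 21.1 CPM (32.3 to 33 CPM in the others), Aqp3 at 91.9 CPM (30.2 to 34 CPM in the others) and Atp1b1 at 131 CPM (103 to 108 CPM in the others). It also had Atp6v1g3 at 79.7 CPM (23 to 28.3 CPM in the others), Pf4 at 43.5 CPM (11.2 to 14.2 CPM in the others) and Plvap at 1064 CPM (577 to 633 CPM in the others). Endothelial replicate 1 had Havcr1 at 0.944 CPM (no reads in the others) and Jag1 at 286 CPM (372 to 379 CPM in the others). Endothelial replicate 2 had Notch4 at 132 CPM (88.7 to 90.4 CPM in the others). Endothelial replicate 4 had Lypd2 at 2.23 CPM (no reads in the others) and S1pr1 at 534 CPM (429 to 444 CPM in the others). Havcr1 and Lypd2 had a few reads at most, in 1 endothelial library only, and the rule flags any gene with such a pattern. The summed level of a list was highest in endothelial replicate 3 at 9583 CPM for nuclear oxidative phosphorylation (6899.6 to 7204 CPM in the others), 74.4 CPM for platelets and megakaryocytes (24 to 30.1 CPM in the others) and 4163 CPM for venous and fenestrated capillary endothelium (2438 to 2548 CPM in the others).

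For 22 of 222 genes named in the text the difference between tubular and endothelial cells was itself different between old and young cells (edgeR interaction, adjusted p from 2.10e-04 to 0.0375). The share called over all genes tested was 0.867%. Of the 22 genes, 10 were picked by this same test, so the count was partly set in advance. Only those 10 were run under the alternatives. The change in log2 fold change, old minus young, was above 0 for 8 of the 22, 3.41 for Itga8, 3.34 for Cyth4, 3.24 for Cd53, 3.21 for Clec1a, 2.98 for Pdgfrb, 2.75 for Fxyd5, 2.52 for C1qb and 1.86 for Jag1. It was below 0 for 14, -2.97 for Slc4a11, -2.81 for Cldn15, -2.66 for Enpp6, -2.53 for Stk32a, -2.39 for Bst1, -2.24 for Alpl, -2.14 for H2-DMb1, -2.09 for Ggt1, -1.81 for Nrp2, -1.79 for Agt, -1.64 for Enpep, -1.57 for Angpt2, -1.36 for Ifit3 and -0.99 for Slc6a6. The fitted fold change had opposite signs at the 2 ages for Agt (-0.60 in old and 1.22 in young cells), C1qb (1.69 in old and -0.78 in young cells), Enpep (-1.39 in old and 0.29 in young cells), Enpp6 (-2.24 in old and 0.46 in young cells), H2-DMb1 (-0.96 in old and 1.23 in young cells) and Jag1 (0.85 in old and -0.96 in young cells). In young cells C1qb, Enpep and Enpp6 did not pass the edgeR test (adjusted p = 0.0818, 0.240 and 0.231), so their sign there is uncertain.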

How the results depend on the processing

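Counts of genes called in young and in old cells, and beyond 2-fold in young cells, stayed within 1.5 times under every alternative run, from 3402 to 4784 genes higher and from 3448 to 4480 lower in young cells. The median of all genes moved to -0.11 with no filter on low counts and to 0.05 with total counts only. Of 201 called genes named in the text 196 kept their call under every alternative that tested them (all 14 except for Ppbp with 11 and Slc22a7 with 12), Cubn, Gapdh, H2-DMb1, Ifitm1 and Nphs1 lost it under some, 6 uncalled genes gained one under some, and none reversed. The fold of 34 called genes moved over 1.5 times when 1 library was left out.

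The counts of genes whose contrast differed with age, 58 higher, 71 lower and 129 in all, moved. They were 134, 159 and 293 with DESeq2, 335, 131 and 466 with no filter on low counts, 22, 25 and 47 with a replicate block, and 20, 25 and 45 with replicates 1 to 3 only, which was chosen after seeing the data. Without 1 library at a time they ran from 27 to 133 higher, from 35 to 115 lower and from 66 to 233 in all. The cause was not tested, except that the block and the fit of replicates 1 to 3 use fewer libraries. Same-numbered tubular and endothelial libraries did not deviate together (Pearson's r across genes from -0.0355 to 0.0217 in young and from -0.0417 to 0.0310 in old cells), so the numbers were not taken as pairs, and 1 of 6 tubular libraries correlated best with its own number. Besides the counts above, the block ended the calls of Cubn, Gapdh, H2-DMb1, Ifitm1, Cd53, Cyth4 and Stk32a and gave one to Slc13a1. Genes near 10 reads per library were limited by depth, and intervals cover counting error only.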

Other observations

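Genes of MHC class II presentation, known from antigen-presenting cells, gave a count of calls that rested on single libraries. Of 7 tested, 2 were called. H2-DMb1, a peptide-loading chaperone (log2 fold change 1.23 ± 0.39, adjusted p = 0.0133), and Ctss, cathepsin S (log2 fold change 0.97 ± 0.26, adjusted p = 0.00437), were higher in tubular cells by edgeR, and 0 were lower. The call of H2-DMb1 was lost without endothelial replicate 4 (adjusted p = 0.0521), without tubular replicate 1 (0.0553) and with the replicate number as a block (0.0554). The count of members called was 6 without tubular replicate 2, 4 without endothelial replicate 1, and 1 each without tubular replicate 1, without endothelial replicate 4 and with the block. It was 4 with all 14 kidney libraries in a single fit and 6 with no filter on low counts. Cd74, the invariant chain, was at 37.1 ± 17 CPM in tubular cells and 38 ± 9.54 CPM in endothelial cells and did not pass the test (adjusted p = 0.819).

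Platelet genes divided. Pf4, platelet factor 4, was at 0.724 ± 0.734 CPM in tubular cells and 20.8 ± 15.2 CPM in endothelial cells (log2 fold change -4.70 ± 0.67) and Ppbp, pro-platelet basic protein, at 0.161 ± 0.279 CPM in tubular cells and 8.61 ± 4.51 CPM in endothelial cells, a ratio of endothelial over tubular cells of 66.9, with a 95% counting interval from 11.6 to 2687. The log2 fold change of Pf4 was -3.97 without endothelial replicate 3 and -5.53 without tubular replicate 1. Itga2b, the platelet integrin chain, went the other way, at 34.1 ± 6.51 CPM in tubular cells and 4.15 ± 2.49 CPM in endothelial cells (log2 fold change 3.04 ± 0.36). Of 9 tested proliferation genes Mcm2 was higher (log2 fold change 0.98 ± 0.22) and Mcm3 lower (log2 fold change -3.29 ± 0.27) in tubular cells, both subunits of the replicative helicase, and Mki67 did not pass the test, at 4.71 ± 1.31 CPM in tubular cells and 10.7 ± 6.09 CPM in endothelial cells (adjusted p = 0.0547), except without endothelial replicate 2 (0.047) or 3 (0.00994).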
